A study of Mus musculus with 3 samples.

Results

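Cadherins are calcium-dependent adhesion molecules of the cell surface, and the transcripts of this family were followed in proximal incisor mesenchyme of the mouse. Members were the protein coding genes whose symbols are those of numbered cadherins (Cdh), flamingo cadherins (Celsr1 to Celsr3), Fat1 to Fat4, Dchs1, Dchs2 or protocadherins (Pcdh), which gave 91 of the 19381 genes in the table, or of its 15252 protein coding genes. They comprised 17 classical cadherins, 12 non-clustered protocadherins, 50 clustered protocadherins, 9 planar polarity cadherins and 3 other cadherins. Another 9 annotated genes of these names (Cdh9, Cdh16, Cdh26, Pcdha1, Pcdha2, Pcdha3, Pcdha6, Pcdha7 and Pcdhb1) were not analysed here.

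The 3 bulk RNA libraries, replicates 1 to 3, all came from mice labelled DKO, of the genotype Gli1-CreER;Arid1afl/fl;Arid1bfl/fl, which were 1 month old. Tamoxifen (1.5 mg per 10 g of body weight) had been injected 4 days before collection, and it activates the Cre recombinase only in cells that express Gli1, and the collected tissue can also hold cells that do not. Control mice were not analysed here and nothing below compares genotypes. Whether each library stands for another animal is not stated, and the spread between libraries may therefore be technical.

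Classical cadherins bind like molecules on the neighbouring cell and are tied to actin through catenins. Protocadherins lack the catenin-binding tail, and those of the alpha, beta and gamma clusters are known from neurons, where each cell uses a small set of them as an identity code. Celsr, Fat and Dchs proteins are giant cadherins that align cells within a sheet. In the tooth, E-cadherin belongs to the epithelium, while the mesenchyme carries N-cadherin and cadherin 11.

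Values are the deposited normalized gene values, called normalized units here, with their SD over n = 3 libraries. Totals were 986401, 958773 and 966163 units in replicates 1 to 3. These values are not divided by transcript length, so levels of different genes are compared per kilobase of annotated exon, and deposited values are given gene by gene. A mean of at least 10 units was reached by 54 of 91 members (59.3%), against 66.5% of all protein coding genes. The remaining members comprised 25 with means from 1 to below 10 units and 12 below 1 unit.

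The floxed genes were still detected, with Arid1a at 136, 130 and 133 units and Arid1b at 50.5, 50.7 and 50.8 units in replicates 1 to 3. Without control libraries, and with values over whole genes that include exons outside any deleted stretch, these levels do not check the deletion. Markers of dental mesenchyme were present, led in deposited units by Prrx1 (619 ± 57.9 units) and Pdgfra (610 ± 36.3 units). Per kilobase of exon the 5 listed mesenchymal markers averaged from 31.3 (Twist1) to 77.5 (Msx1) units. Epithelial markers averaged from 0.110 (Cldn4) to 90.4 (Krt5) and macrophage markers from 24.1 (Adgre1) to 202 (Lyz2) units per kilobase. These levels do not give the share of each cell type. Marker genes of epithelium (led by Krt5, Krt14 and Trp63, 9 of 9 in the table, summing to 453, 633 and 420 units in replicates 1 to 3), of endothelium (led by Vwf, Kdr and Pecam1, 8 of 8, 338, 332 and 440 units) and of macrophages (5 of 5, 676, 936 and 966 units) were also present. Skeletal muscle markers were nearly absent, with 2 of 5 in the table and sums of 0.437, 3.24 and 1.89 units. Krt15 and Cldn4 were the epithelial markers near 0, with means below 1 unit. Odontoblast markers varied widely, with sums of 6130, 1403 and 4649 units, mural cell markers summed to 727, 728 and 824 units, and neuron markers (4 of 5 in the table) to 27.6, 39.8 and 44.6 units. Interferon response genes set replicate 1 apart, with sums of 857, 149 and 159 units. In such bulk samples, fewer cells of a type and less RNA per cell cannot be told apart.

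Cadherin 11, the type II classical cadherin of mesenchymal cells, led the family. Cdh11 (chromosome 8, 102632095 to 102785643, minus strand, mm10) stood at 921, 1024 and 1027 units in replicates 1, 2 and 3 (991 ± 60.2, SD, n = 3). The 3 values lay close together, with the highest 1.11 times the lowest. It made up 68.9% ± 0.706 of the summed classical cadherin signal, or 56.4% ± 0.809 per kilobase. Per kilobase of exon it ranked 229 among the 15074 protein coding genes with an annotated length, at 111 ± 6.77 units per kilobase.

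Among type I classical cadherins, E-cadherin exceeded N-cadherin per length. Cdh1 (chromosome 8, 106603351 to 106670247), E-cadherin of epithelial junctions, was at 126, 181 and 150 units (153 ± 27.3). It was highest in replicate 2, as the epithelial marker sum was, and as 34.0% of protein coding genes with a mean of at least 10 units were. Cdh1 was lowest in replicate 1, whereas the epithelial sum was lowest in replicate 3. The part of epithelial cells in this spread was not tested. Cdh3 (P-cadherin, also of epithelia) was at 23.7, 24.4 and 17.4 units, lowest in replicate 3.

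Cdh2 (chromosome 18, 16588877 to 16809247), N-cadherin, was at 107, 91.1 and 106 units (101 ± 9.03), slightly lower in replicate 2 than in the other libraries. Per kilobase of exon Cdh1 averaged 33.3 ± 5.97 and Cdh2 12.6 ± 1.12 units. Cdh4 (R-cadherin, named for the retina) was at 18.5, 41.4 and 61.3 units (40.4 ± 21.4). These values were far apart, and the highest, in replicate 3, was 3.31 times the lowest, in replicate 1. Cdh15, M-cadherin of muscle, was at 0.670, 0.385 and 0.186 units, in a tissue where muscle markers were also nearly absent.

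The other type II cadherins were much weaker than Cdh11. Cdh5 (chromosome 8, 104101625 to 104144512), VE-cadherin of endothelial junctions, was at 76.0, 81.2 and 107 units (88.2 ± 16.9). It was highest in replicate 3, as 7 of 8 endothelial markers were. Of all protein coding genes with a mean of at least 10 units, 34.9% were highest in that library. Among the 7 markers, Cldn5 was nearly level at 10.1, 9.70 and 10.6 units. The part of endothelial cells in the order of Cdh5 was not tested.

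Cdh6 (kidney cadherin) was at 17.9, 16.3 and 11.2 units and was lowest in replicate 3. Cdh24 was at 11.4 ± 0.616 units, almost level. Cdh19, known from Schwann cell precursors, was at 14.4, 8.19 and 8.18 units, highest in replicate 1. The summed glial markers ran the other way, at 28.5, 39.0 and 44.5 units, lowest in replicate 1, and the defining glial factor Sox10 was at 0.728, 1.02 and 1.28 units.

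The remaining 7 type II members had means below 10 units. Cdh18 and Cdh22 averaged 2.23 ± 0.499 and 1.89 ± 0.766 units, while Cdh7, Cdh8, Cdh10, Cdh12 and Cdh20 averaged from 0.158 for Cdh8 to 0.634 for Cdh12. At such values counting error is large. If the smallest step between deposited values is 1 read, as described below, Cdh8 rested on 1, 6 and 12 reads.

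Among cadherins outside the classical groups, Cdh13 (T-cadherin, which is anchored to the membrane by a lipid and has no cytoplasmic tail) was at 51.9, 41.3 and 50.5 units, lowest in replicate 2. Cdh23, a long cadherin of the hair cell tip link, was at 12.8, 6.26 and 4.94 units and was highest in replicate 1. Cdh17, known from intestine, averaged 1.11 ± 0.352 units.

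Planar polarity cadherins were led by Fat1, Dchs1 and Fat4. Fat1 (chromosome 8, 44935447 to 45052258) was at 655, 825 and 849 units (776 ± 106) and lowest in replicate 1. It held 56.8% ± 1.95 of the planar polarity signal, or 51.7% ± 1.97 per kilobase. Fat4 and Dchs1 form a receptor and ligand pair that bind each other across cell contacts. Fat4 (chromosome 3, 38886940 to 39011986) was at 126, 141 and 126 units, with replicate 2 highest, and Dchs1 (chromosome 7, 105752990 to 105787655) was at 272, 294 and 334 units, with replicate 3 highest.

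Fat3 was at 53.8, 63.2 and 68.5 units, lowest in replicate 1. Celsr1 (chromosome 15, 85898929 to 86034204), a core planar polarity cadherin of epithelia, was at 67.0, 87.3 and 46.9 units, and Celsr2 at 19.5, 26.3 and 18.96 units. Both were highest in replicate 2 and lowest in replicate 3, for Celsr2 by a small margin over replicate 1, the order of the epithelial marker sum as well, and its part in theirs was not tested. Dchs2 averaged 4.75 ± 1.52, Fat2 0.338 ± 0.136 and Celsr3, known from neurons, 0.178 ± 0.139 units.

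Among non-clustered protocadherins, Pcdh18 and Pcdh10 were the most abundant. Pcdh18 (chromosome 3, 49743296 to 49757326) was at 143, 171 and 201 units (171 ± 29.0) and Pcdh10 (chromosome 3, 45378398 to 45435624) at 93.5, 118 and 125 units (112 ± 16.4). Pcdh7 (chromosome 5, 57717967 to 58133231) was at 13.7, 32.5 and 38.6 units (28.3 ± 13.0). In all of them replicate 1 was lowest and replicate 3 highest, and for Pcdh7 the highest was 2.81 times the lowest.

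The promoter windows of these 3 protocadherins are shown because they share that order of libraries and are the most abundant pair and the most variable gene of the group. The order is not particular to them, since Pcdh17 (8.88, 10.9 and 11.1 units) had it as well. Each runs from 250 bases before to 50 bases after the annotated start, 5′ to 3′ on the gene's strand, from RefSeq on GRCm38.p6 (the assembly named mm10). Capitals mark the GC box (GGGCGG or CCGCCC, known as a binding motif of Sp1) and the E-box CAGGTG or CACCTG (known as a motif of the Snail and Zeb repressors), which do not overlap in these windows.
Pcdh10, chr3:45378148-45378447, plus strand: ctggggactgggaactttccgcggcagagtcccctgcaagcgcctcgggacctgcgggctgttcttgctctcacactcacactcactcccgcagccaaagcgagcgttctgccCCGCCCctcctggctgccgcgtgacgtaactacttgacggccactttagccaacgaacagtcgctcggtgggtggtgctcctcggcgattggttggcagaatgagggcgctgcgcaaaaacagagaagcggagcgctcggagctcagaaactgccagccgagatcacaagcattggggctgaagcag
Pcdh18, chr3:49757267-49757566, minus strand: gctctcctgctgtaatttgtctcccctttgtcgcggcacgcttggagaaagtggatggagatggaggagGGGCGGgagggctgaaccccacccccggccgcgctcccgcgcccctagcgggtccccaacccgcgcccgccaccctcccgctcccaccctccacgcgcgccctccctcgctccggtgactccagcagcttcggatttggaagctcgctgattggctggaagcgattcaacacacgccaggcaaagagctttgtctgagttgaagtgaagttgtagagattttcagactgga
Pcdh7, chr5:57717831-57718130, plus strand: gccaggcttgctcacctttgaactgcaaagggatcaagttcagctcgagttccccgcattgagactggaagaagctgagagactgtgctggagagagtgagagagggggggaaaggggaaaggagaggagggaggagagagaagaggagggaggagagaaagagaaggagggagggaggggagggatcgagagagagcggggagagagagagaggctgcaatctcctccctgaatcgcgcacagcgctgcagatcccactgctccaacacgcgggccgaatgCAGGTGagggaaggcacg

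The windows of Pcdh10 and Pcdh18 each held 1 GC box and no E-box, while that of Pcdh7 held the E-box and no GC box. They contained 24, 23 and 11 CG dinucleotides in Pcdh10, Pcdh18 and Pcdh7, against a median of 7 over all 32851 RefSeq windows of this length. RefSeq windows were matched by symbol for 27 of 91 members. A GC box was present for 11 of these 27 (40.7%), against 35.7% of all windows, and the E-box for 5 of 27 (18.5%), against 20.2%. The TATA box (TATAAA or TTTATA) was searched as well and was found for 2 of 27 (7.41%), against 13.6%, and in none of the 3 windows shown. A motif match describes the letters of the window and is not evidence of binding.

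Of the other non-clustered protocadherins with a mean of at least 10 units, Pcdh19 was at 19.3, 25.8 and 23.9 units and Pcdh20 at 22.1, 29.3 and 20.1 units, both with replicate 2 highest. Pcdh9 was at 14.1, 13.7 and 13.8 units, the narrowest spread of the members with a mean of at least 10 units (coefficient of variation 1.37%). With 483, 499 and 592 steps behind it, counting error alone would be 4.55%, 4.48% and 4.11%, so that spread is not a measure of its precision. Pcdh1 averaged 13.2 ± 1.85 and Pcdh17 10.3 ± 1.23 units. Pcdh12, a protocadherin of endothelium, was at 6.23, 5.38 and 8.55 units, highest in replicate 3 as Cdh5 was. Pcdh11x, Pcdh8 and Pcdh15 averaged 3.50 ± 1.10, 2.48 ± 0.646 and 1.40 ± 0.148 units.

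Ordered per kilobase, most of the 24 members outside the clusters with a mean of at least 10 units overlapped with their neighbours. Cdh11 (111 ± 6.77 units per kilobase) and Fat1 (49.6 ± 6.76) each stood clear of the next gene in all libraries. Cdh1 (33.3 ± 5.97), Pcdh18 (32.0 ± 5.41), Dchs1 (27.2 ± 2.83) and Cdh5 (21.0 ± 4.01) followed, and the values of neighbours in this group overlapped. Its outer genes, Cdh1 (27.6 to 39.5) and Cdh5 (18.1 to 25.6), did not overlap. Cdh2 (12.6 ± 1.12) stood apart below this group and above Fat4 (7.65 ± 0.501). Of 23 neighbouring pairs in the whole order, 17 overlapped and 6 did not.

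**Figure D1:**
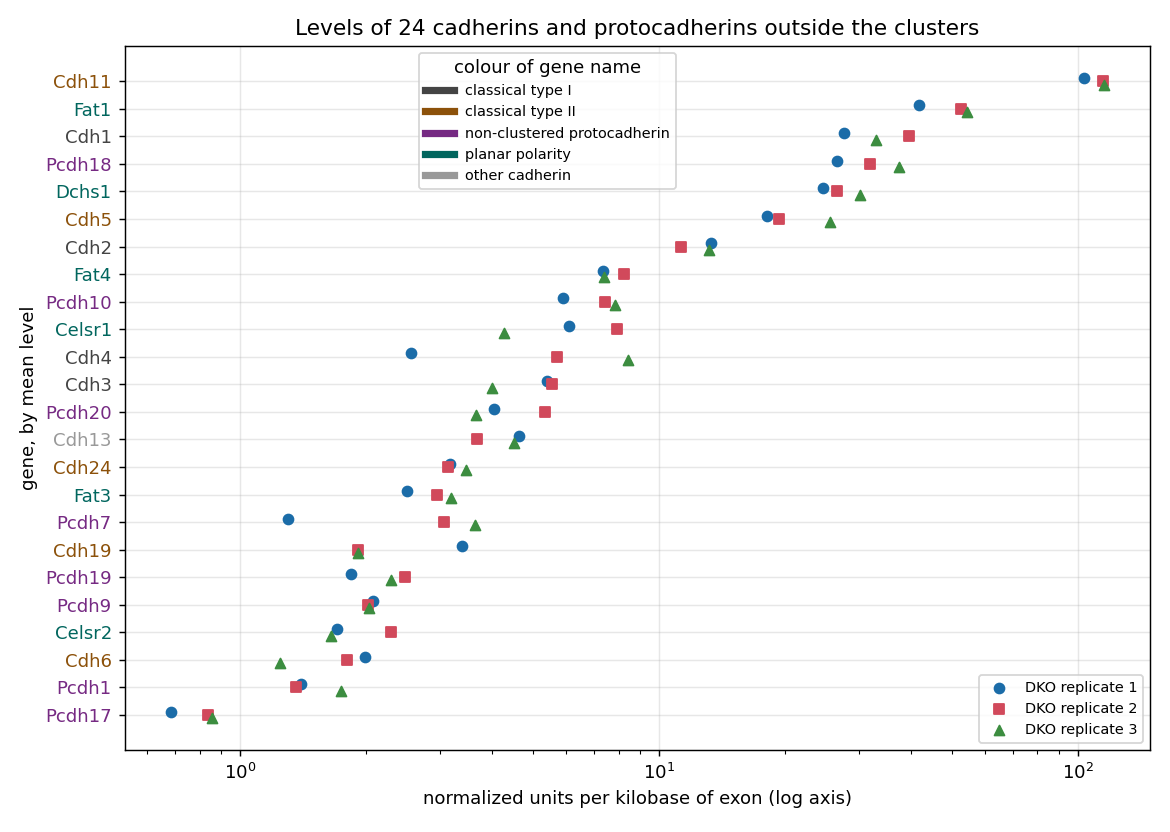
Normalized units per kilobase of exon (horizontal log axis) of the 24 members outside the clusters with a mean of at least 10 units, 1 point per DKO library, with gene names coloured by group. Cdh11, at 103 to 115 units per kilobase, stands above Fat1, and the points of Cdh4 and Pcdh7 are spread most widely.

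Related members were compared within libraries per kilobase. Cdh2 lay below Cdh11 by a log2 difference of -3.15 ± 0.20. Cdh1 exceeded Cdh3 by 2.74 ± 0.35, Fat1 exceeded Fat4 by 2.69 ± 0.19, Celsr1 exceeded Celsr2 by 1.67 ± 0.26, and Pcdh18 exceeded Pcdh19 by 3.86 ± 0.17. Fat4 lay below its partner Dchs1 by -1.82 ± 0.18. Each of the 6 pairs had the same direction in 3 of 3 libraries, and an exact permutation test (signs of the differences flipped, two-sided) returned p = 0.25 for every pair, also after Benjamini-Hochberg adjustment. With n = 3 no lower p can be reached.

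The clustered protocadherins lie on chromosome 18 and their annotated exons partly coincide. Genes of the alpha and gamma clusters each join an exon of their own to a shared set of constant exons. In the annotation 2860 bases of Pcdhac2 and 2119 bases of Pcdhgc3 are also exon of other cluster genes. Beta genes are close copies of each other without such a shared end, and in the annotation only Pcdhb21 and Pcdhb22 overlap. How reads that match several genes were assigned is not given in the sources used here, so the value of each clustered gene is uncertain, and sums over a cluster are given beside it.

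The values of clustered genes also differed in numeric form from those of the other members. In each library values are built on a smallest step, and all 89 values of members outside the clusters that lay below 2000 steps were within 0.05 of a whole number of steps. Of the clustered genes only 2 of 24 alpha values, 14 of 63 beta values and 5 of 60 gamma values were whole by that tolerance, which spans 10% of all possible fractions. Over all genes the share was 82.4%. Fractions of a step were thus common in the clusters and were not seen among those 89 values. What produced them was not tested.

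**Figure D2:**
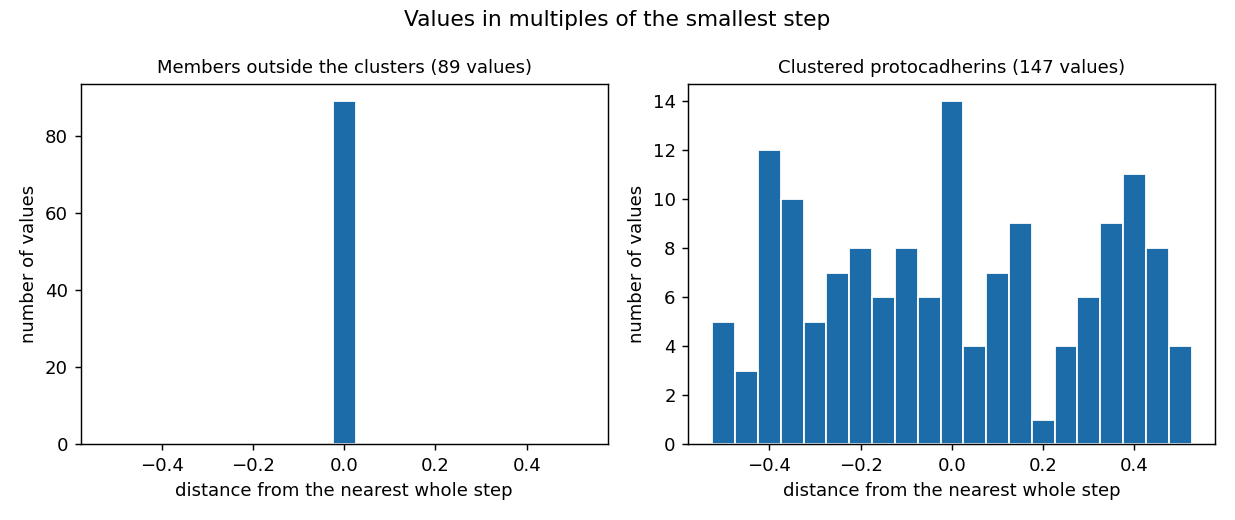
Number of values (vertical axis) by their distance from the nearest whole step (horizontal axis), for values below 2000 steps, in all 3 DKO libraries. The 89 values of members outside the clusters fall in the central bar, while the 147 values of clustered protocadherins spread over all fractions.

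Gamma protocadherins carried most of the signal of the clusters, and Pcdhgc3 most of the gamma signal. Gamma genes summed to 545, 576 and 678 units (600 ± 69.8), beta genes to 366, 400 and 336 units (368 ± 31.8) and alpha genes to 11.6, 14.4 and 13.2 units (13.1 ± 1.38). Per kilobase of exon gamma and beta lay closer together, with sums of 113 ± 13.0 (gamma), 92.0 ± 8.58 (beta) and 2.31 ± 0.242 (alpha) units per kilobase. Pcdhgc3 (chromosome 18, 37806364 to 37841874), a C-type gene that in neurons is not subject to the random choice of the A and B types, was at 329, 364 and 420 units (371 ± 46.0). It exceeded every other gamma gene in every library and made up 61.8% ± 1.53 of the gamma sum, or 59.6% ± 1.53 per kilobase. Per kilobase it ranked 427 among 15074 protein coding genes. The other C-type genes, Pcdhgc4 and Pcdhgc5, were at 7.67 ± 0.554 and 3.43 ± 0.0895 units.

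The remaining gamma genes were much lower and differed among themselves, from 0.450 to 5.54 units per kilobase. The 12 A-type genes had means from 4.48 to 25.0 units and the 6 B-type genes from 6.41 units up. Pcdhgb6 (25.97 ± 2.13 units) and Pcdhga6 (24.6, 26.4 and 24.1 units) were highest among them, per kilobase as well. Of the 21 gamma genes 12 (57.1%) had a mean of at least 10 units, against 66.5% of all protein coding genes. The 12 were Pcdhgc3, Pcdhgb6, Pcdhga6, Pcdhgb7 (16.5 ± 2.68), Pcdhga3 (14.9 ± 2.44), Pcdhga7 (14.6 ± 2.73), Pcdhga5 (14.4 ± 2.08), Pcdhgb2 (13.1 ± 1.79), Pcdhgb4 (12.5 ± 2.33), Pcdhgb1 (12.4 ± 2.28), Pcdhga4 (10.3 ± 2.57) and Pcdhga10 (10.1 ± 2.11).

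Beta protocadherins were nearly all measured at moderate levels, with none below 6.05 units. A mean of at least 10 units was reached by 18 of 21 (85.7%), against 66.5% of all protein coding genes. Pcdhb9 (45.2, 43.9 and 29.5 units) was the highest, per kilobase as well, at 12.9 ± 2.85 units per kilobase. It was followed per kilobase by Pcdhb12 (6.94 ± 0.687), Pcdhb6 (5.84 ± 0.517) and Pcdhb16 (5.74 ± 0.213). Pcdhb9 is flanked along the chromosome by Pcdhb8 (3.21 ± 0.248) and Pcdhb10 (5.11 ± 0.555). Values per kilobase in the cluster went down to 1.59 ± 0.245 for Pcdhb14.

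In deposited units Pcdhb16 was at 29.0, 31.2 and 29.8, Pcdhb19 at 28.4 ± 4.18, Pcdhb17 at 25.8 ± 3.67 and Pcdhb22 at 22.04 ± 2.94. Pcdhb2, Pcdhb3, Pcdhb4, Pcdhb5, Pcdhb6, Pcdhb7, Pcdhb8, Pcdhb10, Pcdhb11, Pcdhb12, Pcdhb14, Pcdhb18 and Pcdhb20 ranged from 10.4 to 21.9 units. Only Pcdhb21 (9.67 ± 0.793), Pcdhb15 (6.87 ± 0.736) and Pcdhb13 (6.05 ± 0.707) stayed below 10 units.

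Alpha protocadherins were scarce. None of the 8 measured reached a mean of 10 units, against 66.5% of all protein coding genes. Pcdhac2, the last gene of the cluster, made up 46.9% ± 8.94 of the alpha sum at 5.20, 8.18 and 5.20 units. Pcdha4 averaged 1.94 ± 0.710, Pcdha11 1.31 ± 0.486 and Pcdha9 1.04 ± 0.524 units, and Pcdha12, Pcdha8, Pcdhac1 and Pcdha5 were below 1 unit.

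**Figure D3:**
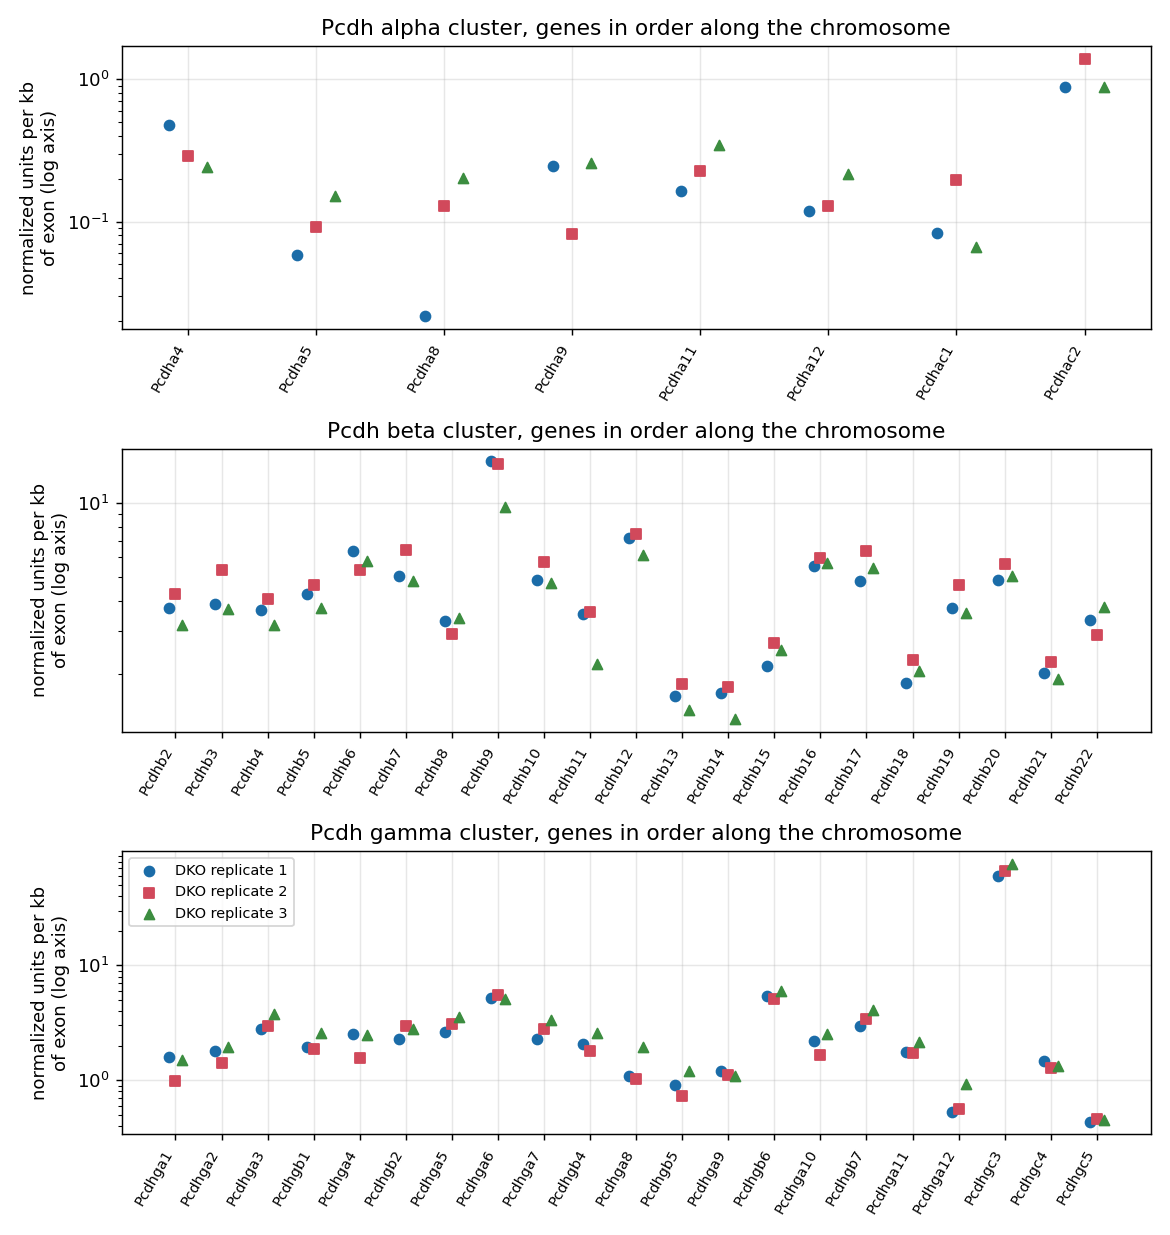
Normalized units per kilobase of exon (vertical log axis, different in each panel) of the clustered protocadherins in their order along the chromosome, 1 point per DKO library. Pcdhgc3 stands far above the other gamma genes, Pcdhb9 leads the beta genes, and Pcdhac2 leads the weak alpha genes.

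The beta and gamma clusters did not share 1 order of libraries. Of 21 beta genes 17 were highest in replicate 2 and 13 lowest in replicate 3, whereas 14 of 21 gamma genes were highest in replicate 3. Among genes with a mean of at least 10 units, 14 of 18 beta genes were highest in replicate 2, against 34.0% of all protein coding genes at that level, and 9 of 12 gamma genes were highest in replicate 3, against 34.9%. The beta sum had the library order of the epithelial marker sum (453, 633 and 420 units), and the part of epithelial cells in it was not tested. Genes of a cluster are related in sequence and may not be independent of each other, and the difference in order was not tested.

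Most members stayed below a 1.5-fold range between libraries, but a larger share of them reached it than of all protein coding genes. The highest library was at least 1.5 times the lowest in 9 of 54 members with a mean of at least 10 units (16.7%), against 5.75% of protein coding genes at that level. For members with means from 10 to below 50 units the count was 8 of 42, against 7.29%, and from 50 units up it was 1 of 12, against 3.72%. The median ratio of highest to lowest was 1.33 for these members and 1.15 for all such genes.

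The 9 were Cdh4 (3.31), Pcdh7 (2.81), Celsr1 (1.86), Cdh19 (1.77), Pcdhb11 (1.63), Pcdhga4 (1.62), Cdh6 (1.60), Pcdhga10 (1.53) and Pcdhb9 (1.53), with the ratio of highest to lowest in parentheses. Without replicate 1 only Celsr1 and Pcdhb11 passed, which makes 2. Without replicate 2 there were 6 and without replicate 3 there were 3 (Cdh4, Pcdh7 and Cdh19), all among the 9. The share of all protein coding genes with a library left out is not given here. The limit of 10 units was applied again to the mean of the libraries kept. Pcdhga4 (7.39 and 11.7 units in replicates 2 and 3) and Pcdhga10 (7.85 and 12.1) kept a 1.5-fold range without replicate 1. They fell out there because their means were 9.52 and 9.95 units. Pcdhga4 likewise kept its ratio of 1.62 without replicate 3, at a mean of 9.69 units. For Cdh4 the values rest on 636, 1508 and 2631 steps and for Pcdh7 on 472, 1184 and 1657. Taken as reads, these give counting errors of 3.97%, 2.58% and 1.95% for Cdh4 and 4.60%, 2.91% and 2.46% for Pcdh7, well below the differences between libraries.

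Replicate 1 was lowest for 23 of the 54 members (42.6%), against 38.4% of all protein coding genes at that level, and highest for 8, against 31.0%. Replicate 2 was lowest for 13 and replicate 3 for 18, against 28.0% and 33.6% of those genes. Replicates 2 and 3 were each highest for 23 of the 54, against 34.0% and 34.9% of those genes. Summed over the group, planar polarity cadherins were at 1197, 1442 and 1450 units, non-clustered protocadherins at 339, 426 and 465 units and classical cadherins at 1324, 1485 and 1506 units, each lowest in replicate 1. The 3 clusters together were at 923, 990 and 1028 units, and the 3 other cadherins at 65.8, 48.3 and 56.9 units, where replicate 1 was highest. Replicate 1 also had the highest interferon and odontoblast sums. It had the lowest sums for macrophages, dental mesenchyme, glia, neurons, muscle and, narrowly, mural cells. The part of these marker sums in the orders above was not tested.

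**Figure D4:**
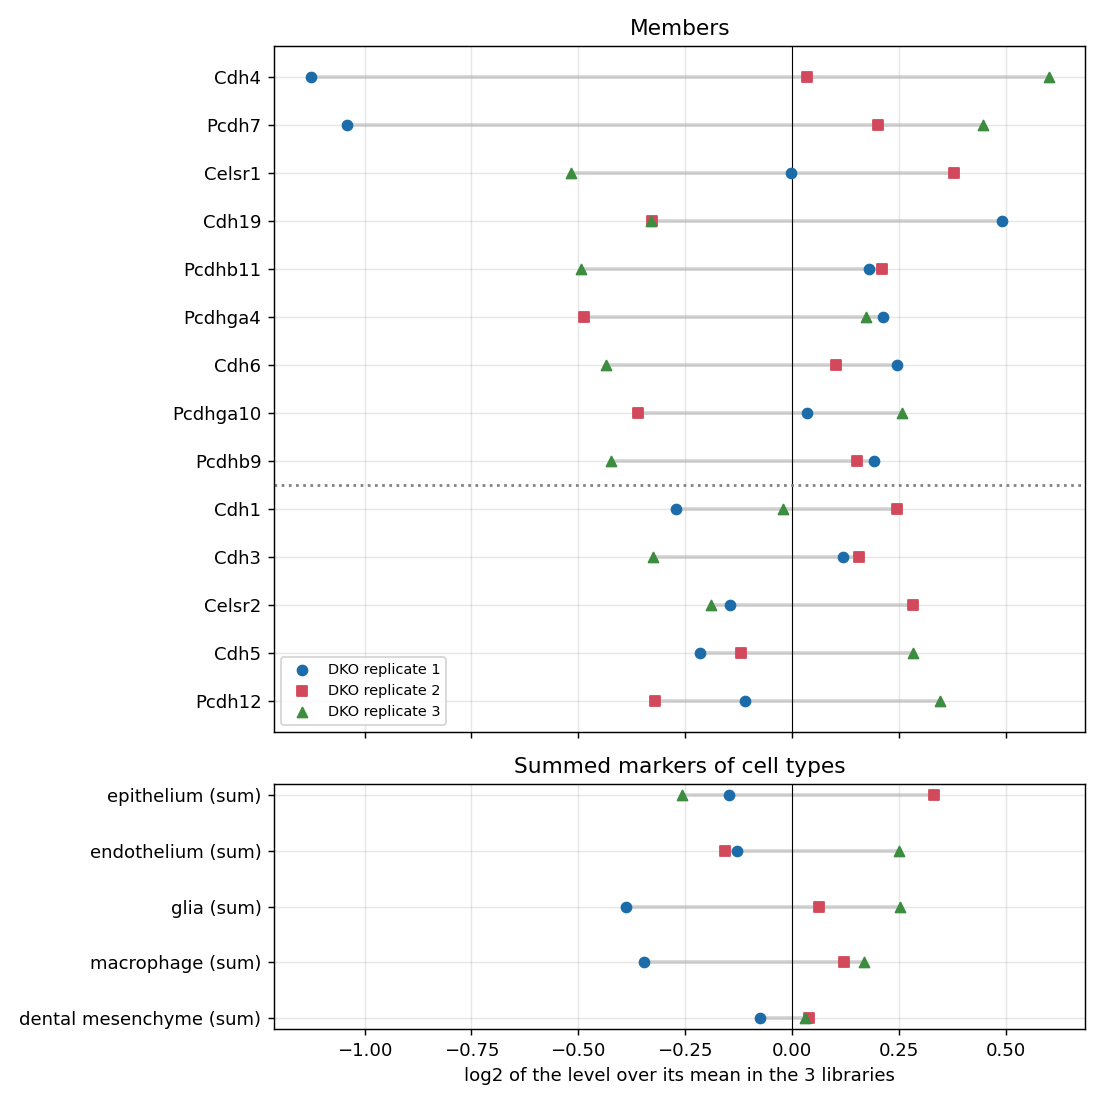
The log2 of the level in each DKO library over the mean of the 3 (horizontal axis), for the 9 widest members with a mean of at least 10 units (above the dotted line), for 5 members that epithelium or endothelium is known to express (below it), and for summed markers (lower panel). Cdh4 and Pcdh7 are lowest in replicate 1. Celsr1, Cdh1 and Celsr2 are highest in replicate 2 as the epithelial sum is, and Cdh5 and Pcdh12 are highest in replicate 3 as the endothelial sum is. Cdh1 and Cdh5 are lowest in replicate 1, but the epithelial sum is lowest in replicate 3 and the endothelial sum in replicate 2.

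Among intracellular partners of classical cadherins, Ctnnb1 was the highest per kilobase of exon, at 248 ± 11.1 units per kilobase, followed by Ctnna1 (59.5 ± 2.58), Pkp4 (56.8 ± 1.41) and Ctnnd1 (46.7 ± 6.12). As deposited, Ctnnb1 (beta-catenin) averaged 1289 ± 57.5 units, Ctnna1 (alpha-catenin, the link to actin) 382 ± 16.6, Ctnnd1 (p120 catenin, which holds cadherins at the surface) 342 ± 44.8 and Pkp4 (plakophilin 4) 324 ± 8.05. Of 11 measured catenins and linkers, 10 had a mean of at least 10 units, against 66.5% of all protein coding genes. Of these 10, 1 reached the 1.5-fold range, the p120 partner Plekha7 (10.7, 12.3 and 7.94 units). At that level 5.75% of protein coding genes did. The median ratio of highest to lowest over those 10 was 1.15, and it was likewise 1.15 for all protein coding genes at this level.

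Nectins, the immunoglobulin-type adhesion molecules that accompany cadherins, all had a mean of at least 10 units, against 66.5% of all protein coding genes. The nectins and their linker Afdn (208 ± 13.7) included Nectin3 at 182 ± 9.65, Nectin1 at 46.2 ± 4.62, Nectin2 at 26.3 ± 5.92 and Nectin4 at 10.3, 13.0 and 6.85 units. Nectin4 was the only one of the 5 with a 1.5-fold range, which 5.75% of protein coding genes at that level reached. The order of Nectin4 was again that of the epithelial sum, highest in replicate 2 and lowest in replicate 3. Its link to that sum was not tested.

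All 13 planar polarity partners had a mean of at least 10 units, against 66.5% of all protein coding genes, and none reached the 1.5-fold range. With 5.75% of protein coding genes at that level reaching it, a count of 0 among 13 is near the background. In deposited units Ankrd6 (the diversin gene) averaged 149 ± 6.33, Fzd3 (a frizzled receptor) 129 ± 23.5, Lix1l 128 ± 5.46 and Prickle2 (a core polarity protein) 85.9 ± 4.10. Per kilobase the order differed, with Lix1l at 35.3 ± 1.51, Ankrd6 at 27.2 ± 1.16, Fzd3 at 10.05 ± 1.84 and Prickle2 at 9.95 ± 0.475 units per kilobase. Of the proteases that mature or shed cadherins, Adam10, the E- and N-cadherin sheddase, averaged 395 ± 20.5 units (80.5 ± 4.18 per kilobase). Furin, which removes the propeptide, averaged 245 ± 17.2 units (26.7 ± 1.87 per kilobase) and Pcsk5 213 ± 26.8 units (14.7 ± 1.85 per kilobase). Of the 8 measured only Mmp9 (8.16, 20.5 and 22.5 units), lowest in replicate 1, reached the 1.5-fold range. Of all protein coding genes at that level 5.75% did.

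Regulators of the clustered protocadherin genes were all in the table. Ctcf, which with cohesin loops cluster promoters to their enhancers, was at 144, 146 and 147 units. In deposited units the cohesin genes Stag2 and Rad21 averaged 279 ± 19.6 and 264 ± 22.4, the cohesin loader Nipbl 230 ± 16.6 and the cohesin release factor Wapl 166 ± 7.80. Per kilobase Rad21 led the list at 62.4 ± 5.30, followed by Stag2 (33.7 ± 2.37). Of 12 regulators 11 had a mean of at least 10 units, against 66.5% of all protein coding genes. None of them reached the 1.5-fold range, a count near the 5.75% of the background.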

How the data were processed

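Bulk RNA was sequenced from 3 DKO libraries. Per the submitters' processing notes, reads were aligned with TopHat2 2.0.8 to mm10. The sources used here do not name the read counter, annotation, strand setting or treatment of shared reads. The deposited values are a normalized gene signal, named normalized counts by the authors. In each column the 75th percentile was 44.7, so the signal appears scaled to a common upper quartile. If the smallest step is 1 read, the totals are 33863438, 34900818 and 41477969 reads. Counting errors derived from this leave out library preparation.

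Each column was tied to its library through the number that both names carry. Exon lengths are unions of GENCODE M21 exons (build GRCm38, the same assembly), and deposited starts equalled annotated starts for 91 of 91 members. Sums, means and SDs were computed with Python 3.11.15 and pandas 2.3.3. The 1.5-fold range was tested on simulated data. No test between groups was possible with 1 group. Named genes were all members with a mean of at least 10 units, the 3 highest of each group, and in partner lists the 4 highest and those with a 1.5-fold range. A gene that this rule names is not reported here. Others were named after their values were seen, among them the promoter windows and motifs. The members, lists and measures were chosen with earlier results of these data known. Alternatives covered scaling, filters, fold, pseudocount, length and leaving out each library.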

Additional observations from a re-analysis of the deposited data

How the results depend on the processing

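Rescaling to equal totals, by median ratios, or after removal of ribosomal RNA and mitochondrial genes kept the same 54 members at a mean of at least 10 units and the same 9 with a 1.5-fold range, and moved no group sum by 1 SD. Over 59 named members, 0 of 118 levels recomputed under the first pair of rescalings moved by 1 SD or more. Such rescaling holds means over the 3 libraries nearly fixed, so mean levels, group sums and the 54 could hardly move. The 54 became 9 at a mean of at least 100 and 9 when the limit was applied per kilobase. The 9 became 25 at a mean of at least 1, 0 at a mean of at least 100, 3 with a pseudocount of 10, 38 at a lower fold limit, 2 at 2-fold and 5 without the clustered protocadherins, the last chosen after seeing the data. Leaving out each library, with the limit of 10 units applied again, gave 2 to 6. The shares of all protein coding genes at these other limits, or with a library left out, are not given here. These counts therefore do not show whether members exceed the background there. Per kilobase the sums were 197 (classical), 207 (clustered), 54.5 (non-clustered), 95.7 (planar polarity) and 4.98 (other cadherins), a change of unit. Counting only members with a mean of at least 10 gave 886 (clustered) and 47.9 (other cadherins) units. No paired analysis between groups was possible because there is 1 group. Depth limits statements on members below 1 unit. Count tests were not run, since whole reads were not recovered over all genes.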

Other observations

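Cadherin relatives outside the naming rule were examined after the other values had been seen. All 8 desmosomal cadherins in the table, the adhesion molecules of epithelial desmosomes, were highest in replicate 2, as the epithelial marker sum was. Of all 15252 protein coding genes, 5127 were highest in that library. Dsg1c and Dsg4 rest on little signal, with means of 0.220 and 0.193 units. Dsc3 was at 230, 323 and 241 units, Dsg2 at 54.2, 79.8 and 55.0, Dsc2 at 23.1, 36.8 and 21.0 and Dsg1a at 20.0, 28.2 and 15.9 units in replicates 1 to 3. Per kilobase of exon Dsc3, at 49.0 ± 9.38 units per kilobase (SD, n = 3), was the highest of these 8. The calsyntenins Clstn1 and Clstn3, cadherins known from synapses, were at 166 ± 21.7 and 15.3 ± 0.931 units, and Ret, a receptor kinase with cadherin repeats, was at 7.74 ± 0.643 units.

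Cdh7, Cdh8, Cdh10 and Cdh20 had the same value in replicate 3, which corresponds to 12 steps and was shared by 160 genes of the table. The pseudogene Pcdhgb8, outside the members because of its gene type, was at 2.28, 3.51 and 2.12 units.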
